A study of Mus musculus with 30 samples.

Results

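The genes described here are 10 immediate early genes, Fos, Fosb, Jun, Junb, Egr1, Ier2, Ier3, Atf3, Dusp1 and Myc, taken by name out of 19938 mouse genes with a probe set of their own on the array. Each of the 10 had 1 probe set that named no other gene. RNA was measured on 30 Affymetrix Mouse Gene 1.0 ST arrays in 10 groups of 3, labelled as biological replicates, in a study that compared endoderm made in culture with pluripotent cells and with the embryo. The cultured cells were the induced pluripotent stem (iPS) clones ST5 and ST8 and embryonic stem (ES) cells, all of C57BL/6x129SvJae background, and each iPS line was a single clone. Each line was taken at day 5 of differentiation, sorted as positive for ckit and dim for Sox2, and at day 0, undifferentiated, sorted as bright for Sox2. These 18 arrays were labelled without amplification. The other 12 arrays were labelled after amplification with the WT-Ovation Pico system. They hold foregut endoderm of E8.25 Swiss Webster embryos, sorted for ENDM1, Epcam and little side scatter, Epcam-positive cells of such embryos that lacked ENDM1, and ES cells at day 5 and at day 0, sorted as above. Every group had been sorted, and no unsorted cells were analysed here.

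Immediate early genes are transcribed within minutes of a stimulus such as serum, a growth factor or stress, without the need for new protein. Serum response factor, CREB and the ERK and stress kinases act on their promoters, and many of the products are transcription factors that pass the signal on or inhibitors that shut it off. They are known to respond to the handling of tissues that are taken apart into single cells.

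Values are log2 levels after RMA, a difference of 1 being a 2-fold difference, and differences are given with the standard error of the fit. A gene was called at an adjusted p under 0.05 (limma, two-sided, Benjamini-Hochberg over all 19938 genes). Unamplified and amplified arrays were fitted apart, and their levels are not set against each other. Overlap of arrays between groups is given as a description, without the share of all genes that do not overlap. The precision of array data is limited by the number of arrays.

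The set of promoter windows used here (RefSeq, GRCm38.p6) held 7 of the 10 genes and not Egr1, Ier2 or Myc. Windows ran from 250 bases before to 50 bases after the start of transcription. Those of Fos, Fosb and Dusp1 are shown because these genes had the largest falls at day 5 in ES cells, and that of Jun because its levels followed another pattern. They lie at chr12:85473640-85473939, plus strand (Fos), chr7:19309996-19310295, minus strand (Fosb), chr17:26508423-26508722, minus strand (Dusp1) and chr4:95052173-95052472, minus strand (Jun). Capitals mark TGACG on either strand (the core of the CRE, the motif that CREB and ATF proteins bind), TGACGTCA (the full CRE, which holds a core on each strand) and TATAAA (the TATA box).
Fos: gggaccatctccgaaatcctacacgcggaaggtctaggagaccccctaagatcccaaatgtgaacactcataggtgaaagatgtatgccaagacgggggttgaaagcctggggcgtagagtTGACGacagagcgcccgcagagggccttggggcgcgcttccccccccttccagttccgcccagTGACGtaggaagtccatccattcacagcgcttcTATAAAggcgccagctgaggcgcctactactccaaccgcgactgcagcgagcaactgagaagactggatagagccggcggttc
Fosb: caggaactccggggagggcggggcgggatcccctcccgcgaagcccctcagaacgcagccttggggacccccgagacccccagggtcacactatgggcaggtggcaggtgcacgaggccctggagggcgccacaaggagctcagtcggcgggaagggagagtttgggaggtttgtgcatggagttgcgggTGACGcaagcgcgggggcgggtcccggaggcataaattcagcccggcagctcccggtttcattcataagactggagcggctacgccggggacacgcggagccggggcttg
Dusp1: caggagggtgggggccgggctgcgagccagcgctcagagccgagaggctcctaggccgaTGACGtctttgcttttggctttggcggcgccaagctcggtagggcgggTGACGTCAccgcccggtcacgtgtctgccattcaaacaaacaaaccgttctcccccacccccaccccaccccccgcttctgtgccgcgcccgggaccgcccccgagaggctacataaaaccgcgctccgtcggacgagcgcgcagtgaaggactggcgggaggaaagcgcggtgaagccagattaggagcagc
Jun: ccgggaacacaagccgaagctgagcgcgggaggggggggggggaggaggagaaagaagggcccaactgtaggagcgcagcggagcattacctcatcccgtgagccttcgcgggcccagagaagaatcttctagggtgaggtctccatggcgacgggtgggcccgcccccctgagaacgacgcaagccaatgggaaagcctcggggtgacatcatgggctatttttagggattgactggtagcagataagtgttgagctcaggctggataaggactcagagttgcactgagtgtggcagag
The CRE core stood in the windows of 5 of the 7 genes, Fos, Fosb, Junb, Atf3 and Dusp1, and in 20.8% of all 32851 promoter windows of the same length. Fos had 2 copies and a TATA box, which 13.6% of all windows hold. Dusp1 had 3 copies, a pair of them within its full CRE, a motif found in 1.79% of windows. The windows of Jun and Ier3 held no CRE core in these letters. The CArG box, which serum response factor binds, was in 1.63% of windows, the AP-1 site TGANTCA in 7.81%, and neither was in any of the 7. Both strands were searched, and a match describes letters in a short window and not a bound site.

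Array medians were 5.50 to 5.57 without amplification and 5.69 to 5.74 with it. All 8 definitive endoderm markers rose at day 5 in ST5, ST8 and ES cells, and of 8 pluripotency markers 8 fell in ST5, 8 in ST8 and 7 in ES cells. Fibroblast markers (10 genes such as Col1a1, Dcn and Lox) were high at day 0. Their summed linear level was 573 to 629 in ST5 at day 5, against 3421 to 3916 at day 0, 543 to 662 in ST8 at day 5, against 3378 to 4119 at day 0, and 590 to 683 in ES cells at day 5, against 2845 to 3723 at day 0. At day 5, ES replicate 1 and ST8 replicate 2 stood apart from their groups. Their summed definitive endoderm level was 8439 in ES replicate 1, beside 3971 and 3843 in replicates 2 and 3, and 8636 in ST8 replicate 2, beside 3632 and 3463 in replicates 1 and 3.

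Most of the 10 genes were lower at day 5 than at day 0 in all 3 lines. In ST5, 8 fell and 1, Jun, rose, where 24.8% of all genes fell and 23.2% rose. In ST8, 7 fell and 0 rose, where 19.5% of all genes fell and 21% rose. In ES cells, 8 fell and 0 rose, where 19.7% of all genes fell and 18.9% rose. The 7 genes that fell in every line were Fos, Fosb, Egr1, Ier2, Ier3, Atf3 and Dusp1, while 14.3% of all genes fell in every line. The median difference of the 10 genes was -1.12 in ST5, -0.90 in ST8 and -0.98 in ES cells, beside medians over all genes of -0.04, -0.01 and 0.02. In these bulk samples, fewer cells of a type and less RNA per cell cannot be told apart. The day 5 and day 0 cells passed different gates, and the effects of gate and of differentiation cannot be separated in them.

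**Figure D1:**
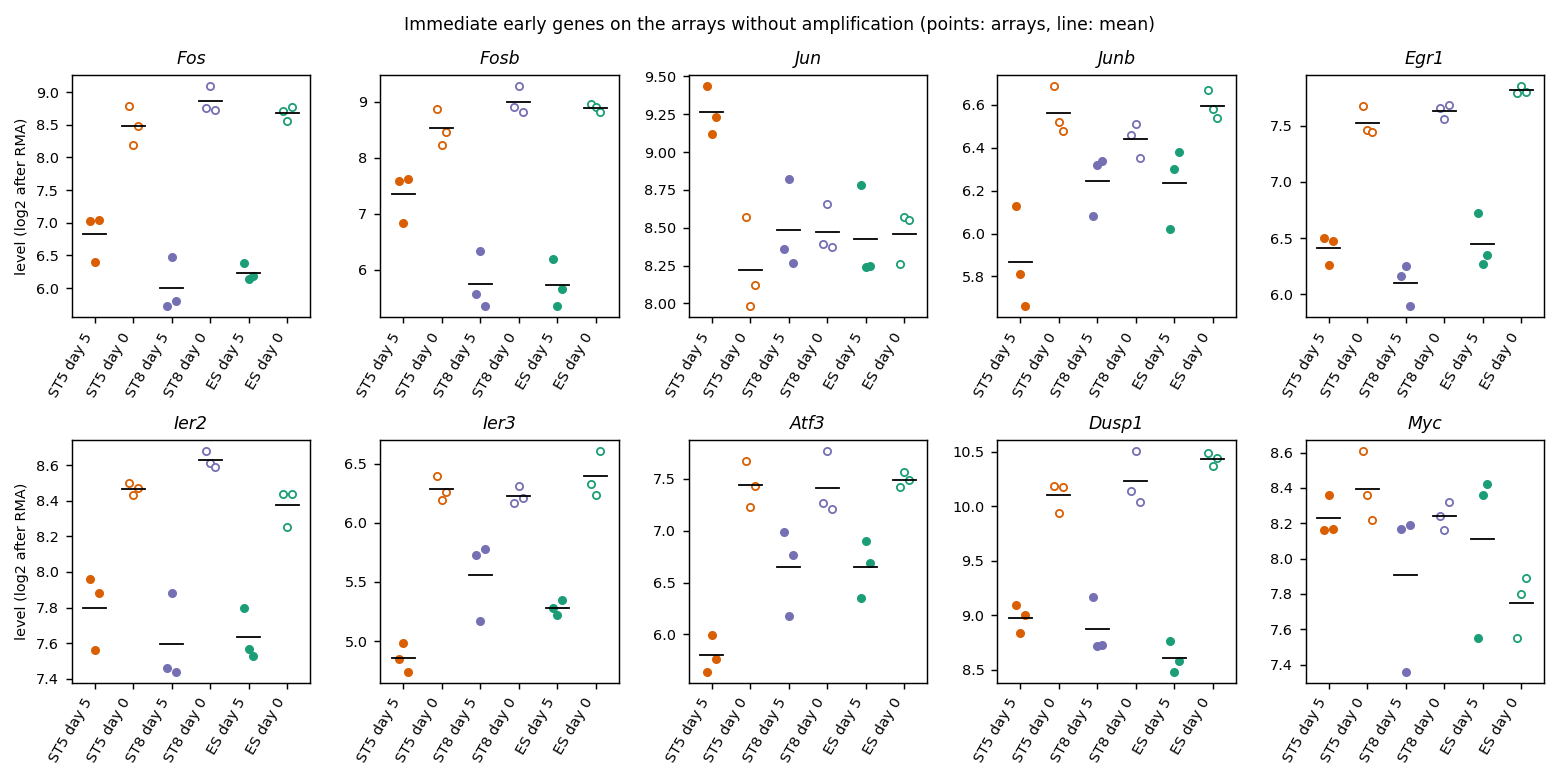
Log2 level after RMA (y axis, not starting at 0) of each of the 10 genes on the 18 unamplified arrays, by line and day (x axis). Points are arrays and lines are means of 3. For Fos, Fosb, Junb, Egr1, Ier2, Ier3, Atf3 and Dusp1 every day 5 array lies below every day 0 array of its line, though Junb was not called in ST8.

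Fos, which joins with Jun proteins to form the AP-1 transcription factor, had some of the largest falls. In ST5, Fos had levels of 7.03, 6.40 and 7.04 at day 5, against 8.79, 8.19 and 8.48 at day 0. In ST8 its levels were 5.72, 6.48 and 5.81 at day 5, against 8.75, 9.10 and 8.72 at day 0. In ES cells they were 6.38, 6.14 and 6.18 at day 5, against 8.71, 8.56 and 8.77 at day 0. The days did not overlap in any line, and ST8 replicate 2 and ES replicate 1 were the highest of their groups at day 5. The difference was -1.67 ± 0.20 in ST5 (adjusted p = 3.55e-06), -2.85 ± 0.20 in ST8 (adjusted p = 1.39e-08) and -2.44 ± 0.20 in ES cells (adjusted p = 9.26e-08).

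Fosb, a close relative of Fos with the same role in AP-1, had the largest fall of the 10 genes in ST8 and ES cells. Levels of Fosb in ST5 were 7.58, 6.84 and 7.62 at day 5, against 8.88, 8.23 and 8.46 at day 0. Levels in ST8 were 5.57, 6.34 and 5.34 at day 5, against 8.90, 9.29 and 8.82 at day 0. Levels in ES cells were 6.19, 5.34 and 5.66 at day 5, against 8.96, 8.91 and 8.82 at day 0. All 3 ST5 arrays at day 5 were higher than any day 5 array of ST8 or ES cells, and none reached the day 0 range. The difference was -1.18 ± 0.27 in ST5 (adjusted p = 0.00144), -3.25 ± 0.27 in ST8 (adjusted p = 7.12e-08) and -3.17 ± 0.27 in ES cells (adjusted p = 1.07e-07).

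Jun, the other partner in AP-1 and a target of the stress kinase JNK, did not share the fall. Jun in ST5 had 9.44, 9.12 and 9.23 at day 5, against 8.57, 7.98 and 8.12 at day 0. Jun in ST8 had 8.36, 8.82 and 8.27 at day 5, against 8.39, 8.66 and 8.37 at day 0, and in ES cells its range was 8.24 to 8.78 at day 5, against 8.26 to 8.57 at day 0. The days overlapped in ST8 and ES cells and did not in ST5. Jun rose in ST5 by 1.05 ± 0.18 (adjusted p = 0.00012). It was not called in ST8, at 0.01 (95% interval -0.37 to 0.39), or in ES cells, at -0.04 (95% interval -0.42 to 0.34).

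Junb, which also pairs with Fos proteins and is known as a weaker activator than Jun, differed less. Its levels in ST5 were 5.66 to 6.13 at day 5, against 6.48 to 6.69 at day 0. They were 6.08 to 6.34 at day 5, against 6.35 to 6.51 at day 0 in ST8 and 6.02 to 6.38 at day 5, against 6.54 to 6.67 at day 0 in ES cells. The days did not overlap in any line. Junb fell in ST5 (-0.70 ± 0.12, adjusted p = 8.87e-05) and in ES cells (-0.36 ± 0.12, adjusted p = 0.0206), and was not called in ST8 (-0.19 ± 0.12, adjusted p = 0.221). The call in ES cells was lost without ES replicate 1 of day 5 (-0.25, adjusted p = 0.111) or ES replicate 1 of day 0 (-0.32, adjusted p = 0.0768).

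Atf3, a stress-induced member of the ATF/CREB family that also binds AP-1 partners, fell in all lines. Atf3 in ST5 read 5.64, 5.99 and 5.76 at day 5, against 7.67, 7.23 and 7.43 at day 0. In ST8 it read 6.99, 6.18 and 6.77 at day 5, against 7.27, 7.77 and 7.21 at day 0, and in ES cells 6.35, 6.90 and 6.69 at day 5, against 7.42, 7.57 and 7.49 at day 0. ST8 replicate 2 and ES replicate 1, the highest of their day 5 groups for Fos, were the lowest for Atf3. The difference was -1.64 ± 0.20 in ST5 (adjusted p = 2.67e-06), -0.77 ± 0.20 in ST8 (adjusted p = 0.00429) and -0.85 ± 0.20 in ES cells (adjusted p = 0.00223).

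Egr1, a zinc finger factor induced through serum response factor and ERK, fell in all lines. Egr1 in ST5 had 6.50, 6.26 and 6.47 at day 5, against 7.68, 7.46 and 7.45 at day 0. It had 6.16, 6.25 and 5.89 at day 5, against 7.66, 7.56 and 7.69 at day 0 in ST8 and 6.72, 6.27 and 6.35 at day 5, against 7.79, 7.86 and 7.80 at day 0 in ES cells. No line overlapped between days. The difference was -1.12 ± 0.11 in ST5, -1.54 ± 0.11 in ST8 and -1.37 ± 0.11 in ES cells, and the largest adjusted p of the 3 was 5.37e-07.

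Ier2, a nuclear protein induced by growth factors, fell in all lines too. Ier2 had 7.96, 7.56 and 7.88 in ST5 at day 5, against 8.50, 8.43 and 8.47 at day 0. It had 7.46, 7.88 and 7.44 at day 5, against 8.68, 8.61 and 8.59 at day 0 in ST8, and averaged 7.63 ± 0.15 in ES cells at day 5, against 8.38 ± 0.11 at day 0 (SD, n = 3). The difference was -0.66 ± 0.12 in ST5, -1.04 ± 0.12 in ST8 and -0.74 ± 0.12 in ES cells (largest adjusted p = 0.000166).

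Ier3, a short-lived protein linked to cell survival and ERK signalling, was lowest in ST5 at day 5. Ier3 had 4.85, 4.98 and 4.74 at day 5, against 6.40, 6.19 and 6.26 at day 0 in ST5. It had 5.73, 5.17 and 5.78 at day 5, against 6.17, 6.31 and 6.21 at day 0 in ST8 and 5.28, 5.22 and 5.35 at day 5, against 6.33, 6.24 and 6.61 at day 0 in ES cells. ST8 replicate 2 was the lowest of its day 5 group. That array and all ST5 and ES arrays of day 5 lay below the array medians of 5.50 to 5.57, so these levels are low. The difference was -1.43 ± 0.13 in ST5 (adjusted p = 2.1e-07), -0.66 ± 0.13 in ST8 (adjusted p = 0.000683) and -1.11 ± 0.13 in ES cells (adjusted p = 5.24e-06).

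Dusp1, a phosphatase that switches off the stress kinases and ERK and so closes the loop, fell in all lines. Dusp1 levels in ST5 were 9.09, 8.84 and 9.00 at day 5, against 10.19, 9.94 and 10.18 at day 0. In ST8 Dusp1 had 9.17, 8.72 and 8.73 at day 5, against 10.14, 10.51 and 10.04 at day 0, and in ES cells 8.76, 8.48 and 8.58 at day 5, against 10.49, 10.37 and 10.44 at day 0. Every day 5 array was below every day 0 array. The difference was -1.13 ± 0.13 in ST5 (adjusted p = 2.46e-06), -1.36 ± 0.13 in ST8 (adjusted p = 5.32e-07) and -1.83 ± 0.13 in ES cells (adjusted p = 2.1e-08).

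Myc, the growth regulator that is also one of the reprogramming factors, was called in no line. Myc in ST5 had 8.16, 8.36 and 8.17 at day 5, against 8.61, 8.36 and 8.22 at day 0. Myc had 8.17, 7.36 and 8.19 at day 5, against 8.24, 8.16 and 8.32 at day 0 in ST8 and 7.55, 8.36 and 8.42 at day 5, against 7.55, 7.80 and 7.89 at day 0 in ES cells. At day 5 ST8 replicate 2 and ES replicate 1 were the lowest of their groups, and the days overlapped in every line. The difference was -0.17 ± 0.22 in ST5, -0.34 ± 0.22 in ST8 and 0.37 ± 0.22 in ES cells. Without ES replicate 1 of day 5 the difference in ES cells was 0.65 and was called (adjusted p = 0.0146).

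The amplified arrays of ES cells gave calls in the same 8 genes. Of the 10 genes 8 fell and 0 rose, where 13.8% of all genes fell and 13% rose, and the median difference was -1.05 beside -0.02 over all genes. Fosb had 5.52, 5.59 and 5.63 at day 5, against 7.77, 7.74 and 7.61 at day 0, a difference of -2.13 ± 0.13 (adjusted p = 1.45e-07). Fos had 5.46, 5.33 and 5.01 at day 5, against 6.65, 6.61 and 6.71 at day 0, a difference of -1.39 ± 0.15 (adjusted p = 1.42e-05). Neither gene overlapped between days. The differences of the other genes that fell were -1.37 ± 0.14 for Dusp1, -1.23 ± 0.15 for Ier3, -1.21 ± 0.14 for Egr1, -0.89 ± 0.14 for Atf3, -0.55 ± 0.10 for Ier2 and -0.40 ± 0.08 for Junb. At day 5 Fos, Fosb and Ier3 (5.53 to 5.68) lay below the array medians of 5.69 to 5.74, and Junb was at 5.53 to 5.69. These levels are low. Jun differed by -0.03 ± 0.15 and was not called. Myc had 7.23, 8.01 and 8.15 at day 5, against 7.13, 7.56 and 7.27 at day 0, and was not called (0.48 ± 0.22, adjusted p = 0.133). Without replicate 1 of day 5, where Myc was lowest, it was called at 0.76 (adjusted p = 0.00525). Whether both sets of ES arrays came from the same RNA is not given in the sources used here. Deviations of the day 5 replicates numbered 1 from their group means correlated across genes between the array sets (r = 0.65, a description, since genes are not independent replicates). Replicates 2 and 3 of day 5 gave 0.447 and 0.285, and unlike-numbered pairs of these 0.34 and 0.343. The same-numbered pairs of day 0 gave 0.119, 0.083 and -0.036. A shared source was not tested, and the amplified arrays are not counted as an independent repeat.

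Other immediate early genes did not all fall with the 10. Of 40 measured, 13 fell and 8 rose in ST5, 11 fell and 12 rose in ST8, and 15 fell and 7 rose in ES cells, with medians of -0.04, 0.10 and -0.06. Over all genes, 24.8% fell and 23.2% rose in ST5, 19.5% fell and 21% rose in ST8, and 19.7% fell and 18.9% rose in ES cells. These shares also stand beside the counts of the further lists, down to the stress genes and fibroblast markers. Klf2, a Krüppel-like factor, differed by -3.09 ± 0.14 in ST5, -2.88 ± 0.14 in ST8 and -2.44 ± 0.14 in ES cells, and its relative Klf4 by -3.03 ± 0.15 in ST8 and -3.01 ± 0.15 in ES cells. Both also belong to the pluripotency network. Phlda1, a regulator of cell survival, rose by 3.40 ± 0.42 in ST5, 1.96 ± 0.42 in ST8 and 1.42 ± 0.42 in ES cells. Rhob, a small GTPase, rose by 1.30 ± 0.18 in ST5, and Ier5 rose by 0.98 ± 0.16 in ST8 and 0.78 ± 0.16 in ES cells. Ccn2, a matrix protein that fibroblasts also make, fell in ST5 (-1.79 ± 0.39).

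Genes on the kinase side of the pathway both fell and rose, and their counts are to be read against the shares of all genes given above. Among 9 ERK feedback genes, 5 fell and 2 rose in ST5, 4 fell and 3 rose in ST8, and 4 fell and 4 rose in ES cells. Etv5, an ETS factor induced by FGF signals, differed by -1.65 ± 0.08 in ST5, -1.55 ± 0.08 in ST8 and -1.27 ± 0.08 in ES cells. Dusp4, a nuclear ERK phosphatase related to Dusp1, rose by 0.67 ± 0.17 in ST5, 1.03 ± 0.17 in ST8 and 1.94 ± 0.17 in ES cells, where Dusp1 fell. Of 14 upstream regulators measured of 17 listed, 2 fell and 7 rose in ST5, 3 fell and 5 rose in ST8, and 3 fell and 5 rose in ES cells. The ETS factor Elk3, a partner of serum response factor, differed by -1.0 ± 0.13 in ST5, -0.71 ± 0.13 in ST8 and -0.43 ± 0.13 in ES cells. Mrtfb, a coactivator of serum response factor, rose by 0.91 ± 0.09 in ST5 and 0.40 ± 0.09 in ES cells, and Mapk8, which encodes the kinase JNK1, by 0.56 ± 0.06 in ST8 and 0.53 ± 0.06 in ES cells.

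Of 10 AP-1 partner genes, 5 of which are also among the other immediate early genes, 4 fell and 2 rose in ST5, 2 fell and 3 rose in ST8, and 2 fell and 0 rose in ES cells. The shares of all genes are those given with the other immediate early genes. Fosl1, a further Fos relative, differed by -0.76 ± 0.09 in ST5, -0.69 ± 0.09 in ST8 and -0.67 ± 0.09 in ES cells. In the Myc network of 10 genes, 5 fell and 4 rose in ST5, 4 fell and 4 rose in ST8, and 4 fell and 3 rose in ES cells. Mycn, the family member that ES cells also use, differed by -2.78 ± 0.22 in ST5, -1.98 ± 0.22 in ST8 and -2.05 ± 0.22 in ES cells, while Mxd4, a repressor that competes with Myc for Max, rose by 1.57 ± 0.18 in ST5, 1.07 ± 0.18 in ST8 and 0.90 ± 0.18 in ES cells.

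Stress genes of other kinds are given beside the 10 genes, to be read against the same shares of all genes. Of 10 heat shock genes measured of 13 listed, 7 fell and 2 rose in ST5, 5 fell and 1 rose in ST8, and 6 fell and 2 rose in ES cells. Hspb1, a small heat shock protein, differed by -3.20 ± 0.15 in ST5, -2.51 ± 0.15 in ST8 and -2.52 ± 0.15 in ES cells. Bag3, a co-chaperone induced by proteotoxic stress, rose by 1.53 ± 0.25 in ST5, 1.10 ± 0.25 in ST8 and 1.03 ± 0.25 in ES cells. The inducible chaperone Hspa1a has a near-identical copy and is therefore uncertain. It fell in ST5 (-0.29 ± 0.10) and was not called in ST8 (0.00 ± 0.10) or ES cells (-0.05 ± 0.10). Of 11 genes of the ATF4 and unfolded protein response, 7 fell and 4 rose in ST5, 6 fell and 2 rose in ST8, and 6 fell and 2 rose in ES cells. Chac1, a target of ATF4, fell in ST5 (-1.89 ± 0.17), and Ddit4 rose by 1.20 ± 0.18 in ST8. Of the 10 fibroblast markers, 9 fell and 0 rose in ST5, 10 fell and 0 rose in ST8, and 9 fell and 0 rose in ES cells, with Lox at -4.44 ± 0.16 in ST5, -4.08 ± 0.16 in ST8 and -4.31 ± 0.16 in ES cells. The part of fibroblast RNA, of handling and of sorting in the falls of the 10 genes was not tested.

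**Figure D2:**
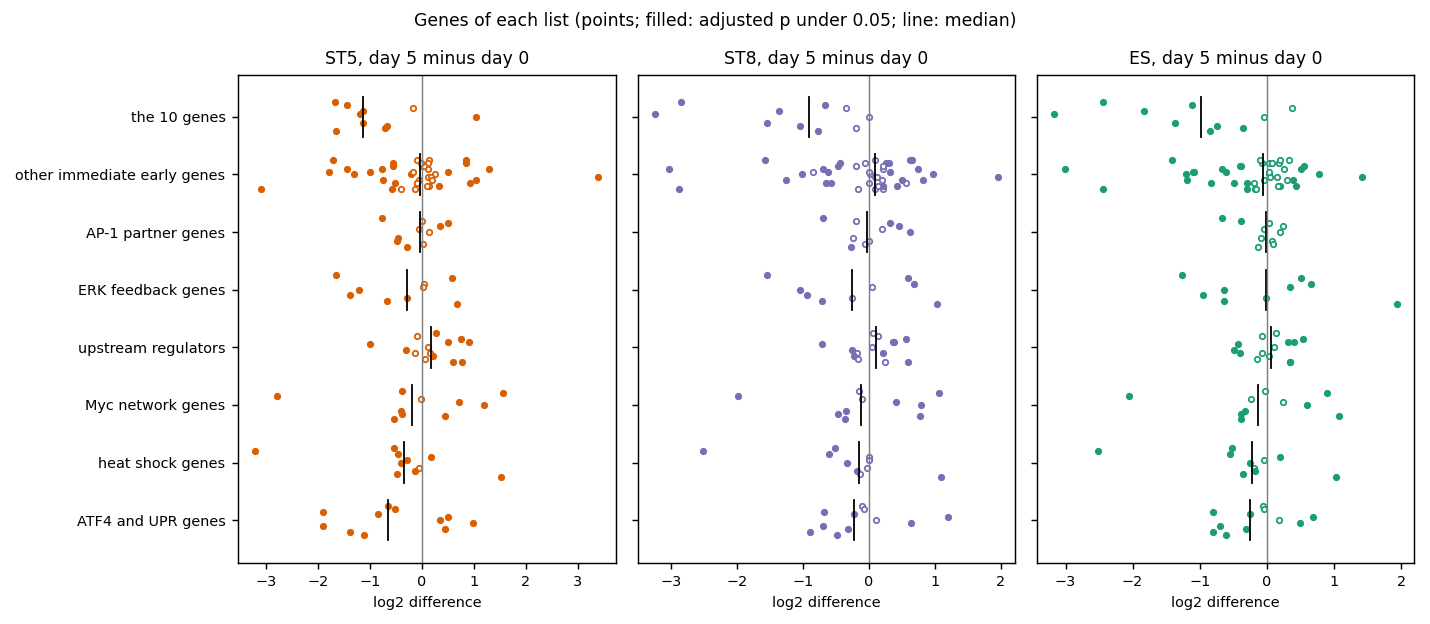
Log2 difference (x axis), day 5 minus day 0, of each gene (points, filled where called at an adjusted p under 0.05) and the median (black line) of the 10 genes and of 7 related lists (down the page) in ST5, ST8 and ES cells (panels). The median of the 10 genes is -1.12 in ST5, -0.90 in ST8 and -0.98 in ES cells, while that of the other immediate early genes is -0.04, 0.10 and -0.06.

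For the 2 arrays that stood apart at day 5, the ranks of the early genes are given beside those of all genes. Nanog, a pluripotency factor, had levels of 5.96, 6.58 and 5.78 in ST5, 9.93, 6.85 and 9.84 in ST8 and 8.18, 9.24 and 9.24 in ES cells. ST8 replicate 2 and ES replicate 1 were thus the lowest of their groups for Nanog. ST8 replicate 2 was the highest of its group for 5 of the 10 genes, Fos, Fosb, Jun, Egr1 and Ier2, and the lowest for 4, Atf3, Ier3, Dusp1 and Myc, where 41.2% of all genes were highest and 38.8% lowest on that array. ES replicate 1 was the highest of its group for 6, Fos, Fosb, Jun, Egr1, Ier2 and Dusp1, and the lowest for 3, Junb, Atf3 and Myc, where 35.8% of all genes were highest and 43.6% lowest. The arrays were noticed by their Nanog and endoderm markers, and no test was run on them.

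**Figure D3:**
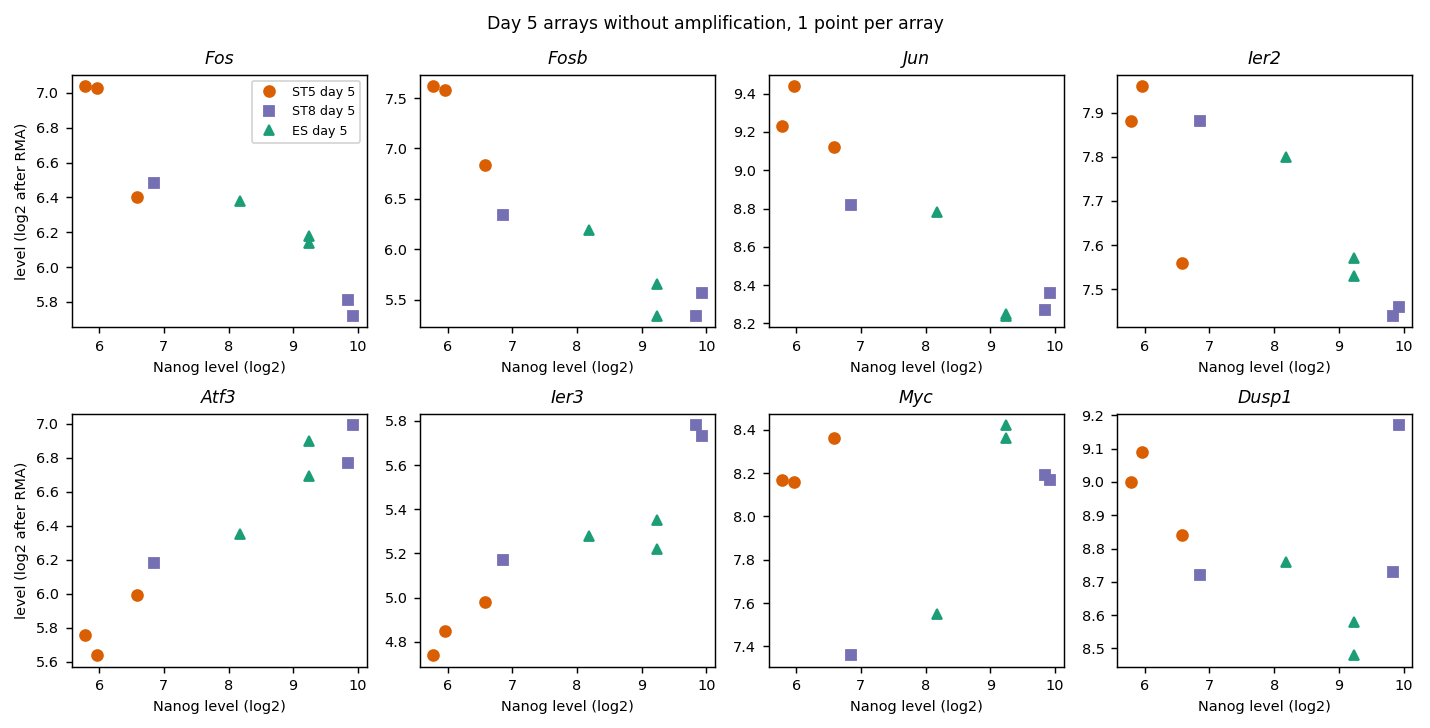
Log2 level (y axis, not starting at 0) of 8 of the 10 genes on the 9 unamplified day 5 arrays against the log2 level of Nanog on the same array (x axis). Each point is an array, coloured by line. ST8 replicate 2, the ST8 array with the lowest Nanog, has Fos at 6.48, within the ST5 range of 6.40 to 7.04, Fosb at 6.34, below every ST5 array, and Myc at 7.36, below every ST5 array and both other ST8 arrays.

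At day 0 none of the 10 genes was called between the clones and ES cells. ST5 against ES cells had 0 of 10 called by limma (3.22% of all genes) and 3 at an unadjusted p under 0.05, Egr1, Dusp1 and Myc. ST8 against ES cells had 0 called (3.55% of all genes) and 1 at an unadjusted p under 0.05, Myc. These shares are of adjusted calls, and no share of all genes is given for the unadjusted threshold. Myc was 8.61, 8.36 and 8.22 in ST5 and 8.24, 8.16 and 8.32 in ST8, against 7.55, 7.80 and 7.89 in ES cells. Both clones lay above every ES array, by 0.65 ± 0.22 in ST5 (adjusted p = 0.148) and 0.50 ± 0.22 in ST8 (adjusted p = 0.264). Both were called when only the groups compared were fitted (adjusted p = 0.0132 in ST5 and 0.0135 in ST8). Fosb differed by -0.37 (95% interval -0.94 to 0.19) in ST5 and 0.10 (95% interval -0.46 to 0.67) in ST8. Both clones were set against the same ES arrays. Within the clones, ST5 replicate 1 was the highest of its day 0 group for all 10 genes, where 37.1% of all genes were highest on that array. Its summed fibroblast level was also the highest of the 3, at 3916, beside 3589 and 3421. For the ST8 arrays of day 0, Col1a1, Dcn and Lox are given rather than the summed level. ST8 replicate 3 had the highest Col1a1 (9.92, beside 9.67 and 9.77), Dcn and Lox (8.19, beside 7.99 and 8.11) of its group. It was the lowest for 7 of the 10 genes and the highest for 2, where 35.7% of all genes were lowest and 32% highest. ST8 replicate 2 was the highest for 7 and the lowest for 2, where 34.3% of all genes were highest and 31.6% lowest. The part of fibroblast RNA in these ranks was not tested.

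At day 5, ST5 differed from ES cells in 6 of the 10 genes, 3 higher and 3 lower, where 11.6% of all genes were higher and 11.8% lower. Higher in ST5 were Fosb by 1.62 ± 0.27 (adjusted p = 0.00113), Jun by 0.84 ± 0.18 (adjusted p = 0.00489) and Fos by 0.59 ± 0.20 (adjusted p = 0.0469). Lower in ST5 were Atf3 (-0.85 ± 0.20, adjusted p = 0.00754), Ier3 (-0.43 ± 0.13, adjusted p = 0.0313) and Junb (-0.37 ± 0.12, adjusted p = 0.0329). ST5 and ES arrays overlapped for Junb. For Ier3 both groups lay below the array medians. The calls of Fos, Ier3 and Junb were each lost without ES replicate 2 (adjusted p = 0.139, 0.0678 and 0.115), ES replicate 3 (0.137, 0.114 and 0.154) or ST5 replicate 3 (0.153, 0.105 and 0.141). Those of Fos and Ier3 were also lost without ST5 replicate 1 (0.167 and 0.081), and that of Junb without ST5 replicate 2 (0.0958). Ier3 and Junb were lost after a further quantile normalization (0.0869 and 0.0648) and with the arrays at a common median (0.0701 and 0.0986), Fos and Junb with only the groups compared fitted (0.059 and 0.116), and Fos with a robust spread and an intensity trend (0.0573). Dusp1 was not called (0.37 ± 0.13, adjusted p = 0.0565) and was called without ES replicate 1 (0.45, adjusted p = 0.0293). Beside these genes, Klf4 was higher in ST5 by 1.67 ± 0.15, the visceral endoderm marker Ttr was higher by 2.79 ± 0.29, and Nanog was lower (-2.78 ± 0.55). The part of cell state in these differences was not tested.

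The day 5 change itself differed between ST5 and ES cells for Fosb, Jun and Dusp1, each more positive in ST5, where 3.3% of all genes had a more positive and 2.28% a more negative change. The change of Fosb was more positive by 2.0 ± 0.38 (adjusted p = 0.0086), a call kept in all 20 alternatives run. That of Jun was more positive by 1.09 ± 0.25 (adjusted p = 0.0239). Its call was lost without ES replicate 2 or 3 of day 5 (adjusted p = 0.0681 and 0.0712), ES replicate 2 or 3 of day 0 (0.0512 and 0.0641), ST5 replicate 2 of day 0 (0.0678) or ST5 replicate 1 of day 5 (0.065). The change of Dusp1 was more positive by 0.70 ± 0.19 (adjusted p = 0.0417), a call lost on leaving out any one array except ES replicate 1 of day 5 (adjusted p = 0.0502 to 0.11) and after a further quantile normalization (0.0522). Atf3 (-0.80 ± 0.28, adjusted p = 0.0963) and Myc (-0.54 ± 0.31, adjusted p = 0.303) were not called. Without ES replicate 1 of day 5 both were, Atf3 at -0.94 (adjusted p = 0.0316) and Myc at -0.81 (adjusted p = 0.0426).

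ST8 against ES cells at day 5 had 0 of the 10 genes called by limma (0.958% of all genes) and 1 at an unadjusted p under 0.05, Egr1 (-0.35 ± 0.11, adjusted p = 0.159). Fosb differed by 0.02 (95% interval -0.54 to 0.59), Jun by 0.06 (95% interval -0.32 to 0.44) and Atf3 by 0.00 (95% interval -0.41 to 0.42). The day 5 change of ST8 against that of ES cells also had 0 called by limma (0.838% of all genes), with 3 at an unadjusted p under 0.05, Dusp1, Ier3 and Myc. The shares here are of adjusted calls, and none is given for the unadjusted threshold. Ier3 was called in both comparisons without ST8 replicate 2 of day 5, at 0.47 (adjusted p = 0.0152) in level and 0.64 (adjusted p = 0.0182) in change. These comparisons share their ES arrays with those of ST5.

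**Figure D4:**
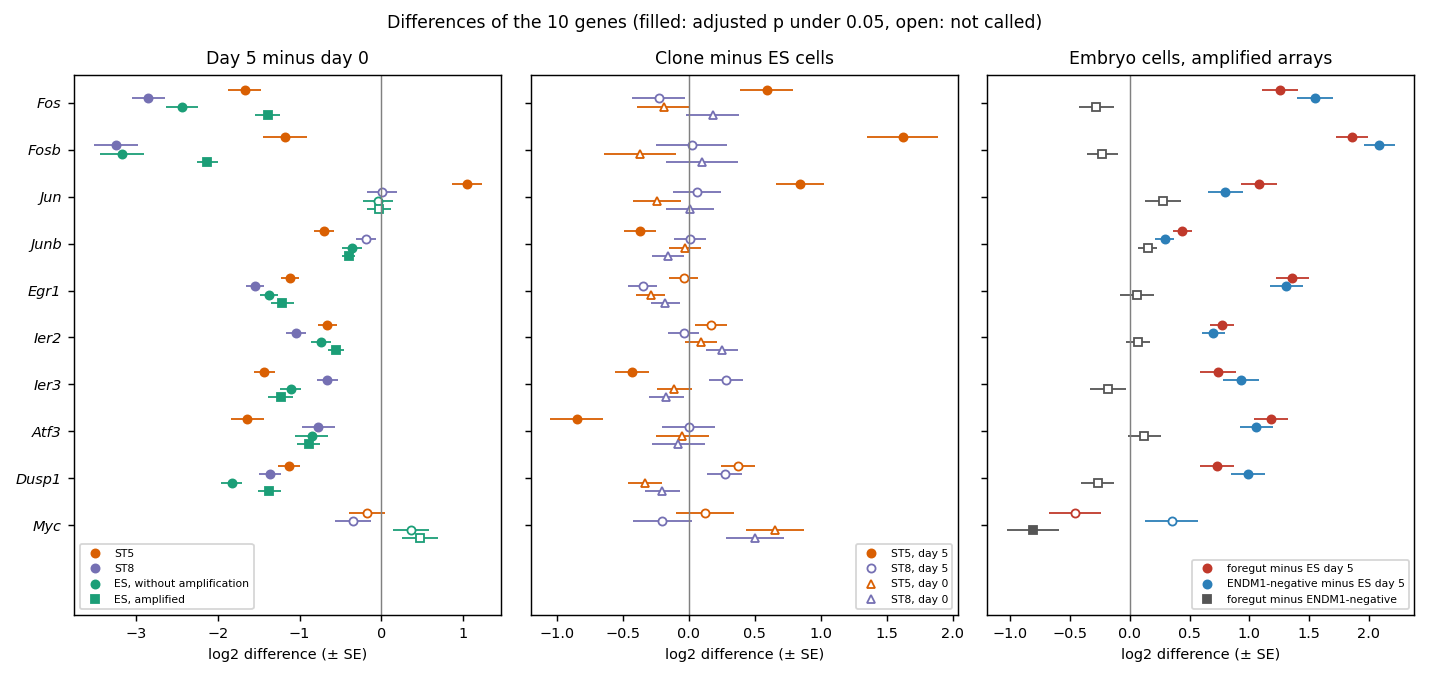
Log2 difference with its standard error (x axis) of each of the 10 genes (down the page): day 5 minus day 0 (left panel), clones minus ES cells (middle panel), and embryo cells on amplified arrays (right panel). Filled points were called at an adjusted p under 0.05 and open points were not. Jun lies above 0 in ST5 and near 0 in ST8 and ES cells, and 9 genes are higher in both embryo populations than in ES cells at day 5.

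In the embryo cells, the early genes stood above their level in ES cells at day 5. Foregut cells had 9 of the 10 genes higher and 0 lower, where 14.7% of all genes were higher and 9.42% lower, with a median difference of 0.92 beside 0.08 over all genes. ENDM1-negative cells also had 9 higher and 0 lower, where 16.5% of all genes were higher and 9.76% lower, with a median of 0.96 beside 0.06. In both, which use the same ES arrays, Myc was the gene not called. On these ES arrays of day 5, Fos, Fosb and Ier3 lay below the array medians of 5.69 to 5.74. Junb was at 5.53 to 5.69 there, so these reference levels are low. Embryo and cultured cells also differed in strain, in the RNA kit (RNeasy Micro for embryos, miRNeasy Mini for cultures) and in being taken from a tissue, and these cannot be told apart.

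**Figure D5:**
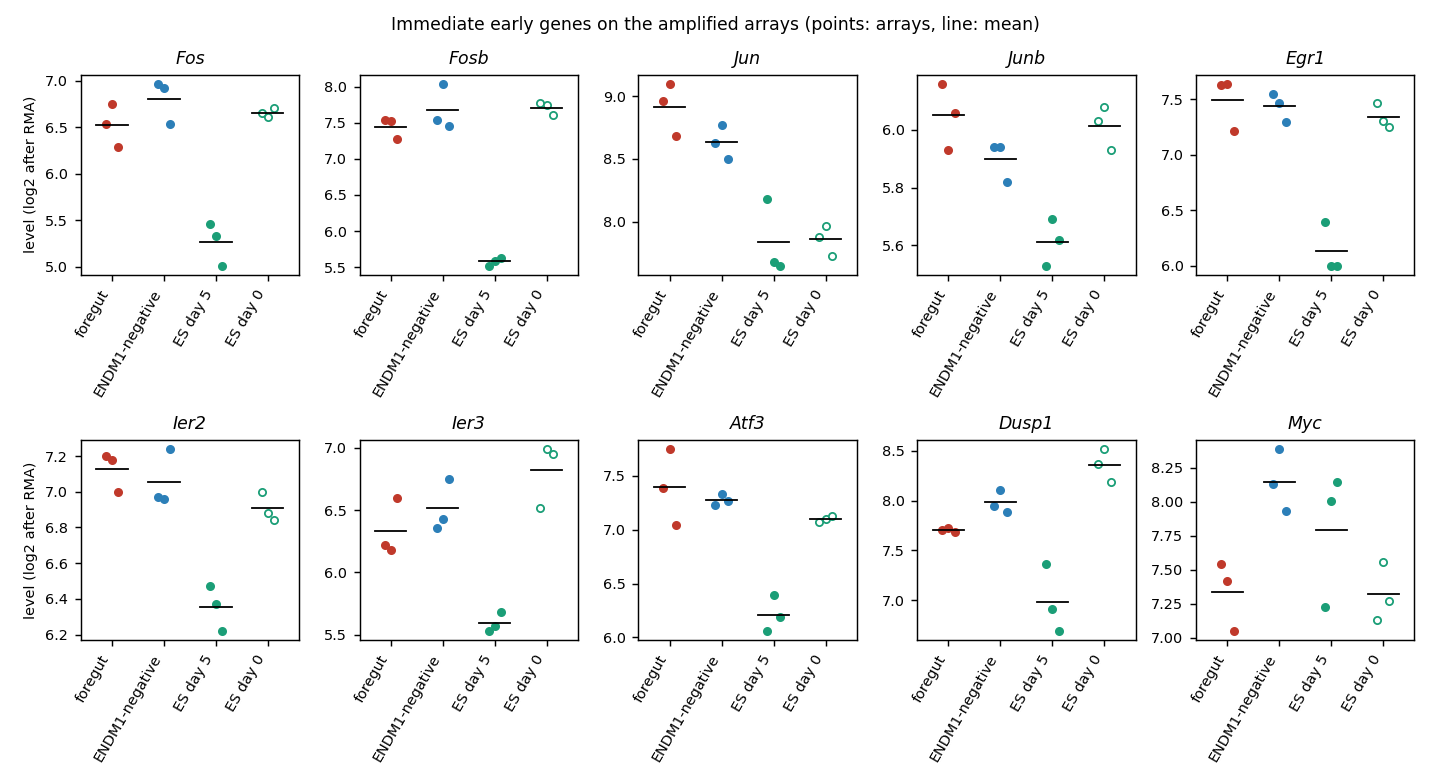
Log2 level after RMA (y axis, not starting at 0) of each of the 10 genes on the 12 amplified arrays (x axis: foregut, ENDM1-negative cells, ES cells at day 5, ES cells at day 0). Points are arrays and lines are means of 3. ES cells at day 5 have the lowest mean for Fos, Fosb, Jun, Junb, Egr1, Ier2, Ier3, Atf3 and Dusp1, for Jun at 7.84 beside 7.86 in ES cells at day 0.

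Among the AP-1 genes, Fosb had 7.53, 7.52 and 7.27 in foregut cells and 7.53, 8.04 and 7.45 in ENDM1-negative cells, against 5.52, 5.59 and 5.63 in ES cells at day 5. Fosb was higher by 1.86 ± 0.13 in foregut cells (adjusted p = 1.46e-06) and by 2.09 ± 0.13 in ENDM1-negative cells (adjusted p = 6.24e-07). Fos had 6.54, 6.75 and 6.29 in foregut cells and 6.97, 6.92 and 6.54 in ENDM1-negative cells, against 5.46, 5.33 and 5.01 in ES cells at day 5, and was higher by 1.26 ± 0.15 in foregut cells and 1.55 ± 0.15 in ENDM1-negative cells. Every embryo array was above every ES array of day 5 for both. Jun had 8.96, 9.10 and 8.68 in foregut cells and 8.63, 8.77 and 8.50 in ENDM1-negative cells, against 8.18, 7.68 and 7.65 in ES cells at day 5. Jun was higher by 1.08 ± 0.15 in foregut cells (adjusted p = 0.000249) and by 0.80 ± 0.15 in ENDM1-negative cells (adjusted p = 0.00148), again with no overlap. Junb was higher by 0.44 ± 0.08 in foregut cells (adjusted p = 0.00273) and 0.29 ± 0.08 in ENDM1-negative cells (adjusted p = 0.0246). The second call was lost without replicate 1 or 3 of the ES cells at day 5 (adjusted p = 0.0783 and 0.0585) and without replicate 1 or 2 of the ENDM1-negative cells (0.0772 and 0.0712).

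The rest of the early genes except Myc had the same direction. Egr1 had 7.63, 7.64 and 7.21 in foregut cells and 7.55, 7.47 and 7.29 in ENDM1-negative cells, against 6.39, 6.00 and 6.00 in ES cells at day 5, and was higher by 1.36 ± 0.14 in foregut cells and 1.31 ± 0.14 in ENDM1-negative cells. Atf3 had 7.39, 7.75 and 7.04 in foregut cells and 7.23, 7.33 and 7.27 in ENDM1-negative cells, against 6.06, 6.39 and 6.19 in ES cells at day 5, and was higher by 1.18 ± 0.14 in foregut cells and 1.06 ± 0.14 in ENDM1-negative cells. None of these arrays overlapped between embryo and ES cells of day 5. Dusp1 was higher by 0.73 ± 0.14 in foregut cells and 0.99 ± 0.14 in ENDM1-negative cells, Ier3 by 0.74 ± 0.15 in foregut cells and 0.93 ± 0.15 in ENDM1-negative cells, and Ier2 by 0.77 ± 0.10 in foregut cells and 0.70 ± 0.10 in ENDM1-negative cells. The largest adjusted p among Egr1, Atf3, Dusp1, Ier3 and Ier2 was 0.00309. Myc differed by -0.46 ± 0.22 in foregut cells (adjusted p = 0.143) and by 0.35 ± 0.22 in ENDM1-negative cells (adjusted p = 0.271). Without replicate 1 of the ES cells at day 5, Myc was called lower in foregut cells (-0.74, adjusted p = 0.00706).

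Embryo cells were not tested against ES cells at day 0, and the means are given side by side. Fos averaged 6.53 in foregut and 6.81 in ENDM1-negative cells, beside 6.66 in ES cells at day 0. Fosb averaged 7.44 and 7.67, beside 7.71, and Egr1 7.49 and 7.44, beside 7.34. Jun averaged 8.91 and 8.63, beside 7.86, and its 6 embryo arrays lay above all 3 day 0 arrays. Dusp1 averaged 7.71 and 7.98, beside 8.36, with all embryo arrays below those of day 0. Fibroblast markers had summed linear levels of 547 to 605 in foregut and 513 to 559 in ENDM1-negative cells, against 474 to 511 in ES cells at day 5. In ES cells at day 0 they summed to 1160 to 1262, above every embryo array.

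Among the other early genes that were called, more were higher than lower in the embryo cells, to be read against the shares of all genes given below. Of the 40 other immediate early genes, 14 were higher, 3 lower and 23 not called in foregut cells against ES cells at day 5. In ENDM1-negative cells 13 were higher, 2 lower and 25 not called. Over all genes, 14.7% were higher and 9.42% lower in foregut cells, and 16.5% higher and 9.76% lower in ENDM1-negative cells. These shares also stand beside the list and marker counts that follow here. Egr2, a relative of Egr1 that also patterns the hindbrain, was higher by 1.46 ± 0.14 in foregut cells and 1.62 ± 0.14 in ENDM1-negative cells. Btg2, an inhibitor of cell growth, was lower (-0.78 ± 0.12 in foregut cells and -1.14 ± 0.12 in ENDM1-negative cells). Rhob was higher in foregut cells by 0.76 ± 0.08, and Gadd45a, a DNA damage response gene, was higher in ENDM1-negative cells by 0.98 ± 0.11. Of the 10 heat shock genes, 2 were higher and 1 lower in foregut cells, and 3 were higher and 0 lower in ENDM1-negative cells, with Hsph1 higher by 0.83 ± 0.10 in foregut cells and 1.20 ± 0.10 in ENDM1-negative cells. Markers of other cells differed as well. Of 7 blood genes, 4 were higher in foregut cells, and 4 were higher and 1 lower in ENDM1-negative cells, with the embryonic globin Hbb-bh1 higher by 4.10 ± 0.16 in foregut cells and 3.50 ± 0.16 in ENDM1-negative cells. Of 8 endothelial markers, 3 were higher in foregut cells and 8 in ENDM1-negative cells. Of 5 visceral endoderm markers, 5 were higher in foregut cells, with a median of 2.37, and 0 were called in ENDM1-negative cells. Their summed linear level was 3122 to 6783 in foregut cells and 368 to 727 in ENDM1-negative cells, against 460 to 906 in ES cells at day 5. Of 6 surface and neural ectoderm markers, 1 was higher in foregut cells and 4 in ENDM1-negative cells, with medians of 0.20 and 1.07. Of 8 definitive endoderm markers, 1 was higher and 3 lower in foregut cells, and 0 were higher and 6 lower in ENDM1-negative cells. The part of these cells in the early gene levels was not tested.

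Foregut and ENDM1-negative cells differed from each other in 1 of the 10 genes, Myc, where 4.43% of all genes were lower in foregut cells and 3.71% higher. Myc had 7.54, 7.42 and 7.05 in foregut cells, against 8.13, 8.39 and 7.93 in ENDM1-negative cells. The populations did not overlap, and Myc was lower in foregut cells (-0.81 ± 0.22, adjusted p = 0.0367). The call was lost without replicate 1, 2 or 3 of the foregut cells (adjusted p = 0.0577, 0.0744 and 0.132), without replicate 1 or 2 of the ENDM1-negative cells (0.0908 and 0.126), and after a further quantile normalization (0.0638). Of the 10 Myc network genes, 2 were lower in foregut cells, 1 was higher and 7 were not called. Their median difference was 0.02, beside 0.01 over all genes. Lower were Mycn (-0.64 ± 0.13, adjusted p = 0.0081) and Max, the partner of Myc and Mycn (-0.31 ± 0.08, adjusted p = 0.0289). Higher was Mxd4 (0.45 ± 0.11, adjusted p = 0.0214). Beside Myc, 5 of 8 endothelial markers were lower in foregut cells, with Cdh5 at -2.71 ± 0.14, and 4 of 6 ectoderm markers were lower, with Tfap2a at -3.19 ± 0.17. Higher in foregut cells were 4 of 5 visceral endoderm markers, with a median of 2.86, and 7 of 8 definitive endoderm markers, with a median of 1.15. The part of these cells in the difference of Myc was not tested. Foregut replicate 3 was the lowest of its group for 8 of the 10 genes, where 26% of all genes were lowest on that array.

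Genes whose levels ran most like those of the early genes were found by Pearson correlation over the 18 unamplified arrays, among the 3024 genes whose group means ranged over at least 1 log2 unit. The arrays share groups, so the values describe these arrays and carry no p. Fosb was nearest to Fos (r = 0.975) and Klf4 (r = 0.972), and Fos to Thbs1 (r = 0.984), a secreted matrix protein, which was also nearest to Egr1 (r = 0.978). Atf3 was nearest to Got1 (r = 0.98), an aminotransferase, and Ier3 to Ankrd27 (r = 0.982). Jun was nearest to Nrp2, at r = 0.901. Over the 12 amplified arrays, Fos was nearest to Rel (r = 0.965), an NF-kappaB subunit, followed by Egr1 and Fosb (r = 0.962 each), and Atf3 was nearest to Egr1 (r = 0.928).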

How the data were processed

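The deposited values, log2 expression levels, had been made with RMA, as the submitters' processing notes name it. Its version, and whether both labellings went through it together, are not given in the sources used here. Of 35556 probe sets the platform annotation held 23410. The 21789 that name 1 gene were used, and 1621 that name several and 12146 not in it were left out. For 999 genes with several probe sets the brightest on average over the 30 arrays stood for the gene, which left 19938 genes. No column was left unused (0).

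Group means were fitted with limma 3.58.1 (R 4.3.3, with the data.table package) over the 18 unamplified arrays and, apart, over the 12 amplified arrays. There were 13 contrasts, with two-sided moderated tests and Benjamini-Hochberg adjustment over all genes at 0.05. The scripts were tested on simulated data. The p-values set a difference between groups against the spread between replicates, which was shared over the groups of a labelling. As each iPS line was a single clone, they do not cover variation between clones.

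The 10 genes, the lists and the markers were chosen with earlier results of these data known. Genes named are the 10 in every contrast, at most 2 called rises and 2 called falls per list and contrast (by size), and genes among the 3 most correlated with a member. Marker genes and Hspa1a were named after their values were seen. Genes of a list without a probe set of their own were not used. Alternatives were a further quantile normalization, a common array median, no dim genes, averaged probe sets, robust spread with an intensity trend, the replicate block, only the groups compared, each array left out and, chosen after seeing the data, 2 day 5 arrays that stood apart left out together.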

Additional observations from a re-analysis of the deposited data

Results flagged for a closer look

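In 3 of the 10 genes the change between day 5 and day 0 differed between ST5 and ES cells by a test of the difference itself (limma, interaction of line and day), where 3.3% of all genes had a more positive and 2.28% a more negative change in ST5. The change of Fosb was more positive in ST5 by 2.0 ± 0.38 on the log2 scale (adjusted p = 0.0086). The change of Jun was more positive by 1.09 ± 0.25 (adjusted p = 0.0239), with every ST5 array of day 5 above every ST5 array of day 0. The change of Dusp1 was more positive by 0.70 ± 0.19 (adjusted p = 0.0417). Of 20 alternatives, the call of Fosb was lost in 0, that of Jun in 6 and that of Dusp1 in 12. ST5 at day 5 also had less Nanog than ST8 and ES cells, and its part in these differences was not tested.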

How the results depend on the processing

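No called value of the 10 genes reversed direction in any alternative run. With only the groups of a comparison fitted, 1 gene (Myc) was called at day 0 for ST5 against ES cells and 1 (Myc) for ST8 against ES cells, where the fit over all groups called 0. With ES replicate 1 and ST8 replicate 2 of day 5 both left out, an alternative chosen after seeing the data, the day 5 change differed in 8 genes for ST5 against ES cells (5 more positive, 3 more negative), where 13.5% of all genes were more positive and 13% more negative. It differed in 2 for ST8 against ES cells (6.17% of all genes), and 1 gene differed in level between ST8 and ES cells at day 5 (9.01% of all genes). After a further quantile normalization 0 genes differed between foregut and ENDM1-negative cells, and the calls of Ier3 and Junb for ST5 against ES cells at day 5 and of Dusp1 for the change of ST5 were lost. A common median, only the groups compared, or a robust spread with an intensity trend also ended calls for ST5 against ES cells at day 5, among Fos, Ier3 and Junb. The cause was not tested. Leaving out 1 array in turn gave 3 to 7 genes for ST5 against ES cells at day 5, 1 to 5 for the day 5 change of ST5 against that of ES cells, and 0 to 1 each for ST8 against ES cells at day 5, for the day 5 change of ST8 against that of ES cells and for foregut against ENDM1-negative cells. The counts at day 5 against day 0 were 9 to 9 in ST5, 7 to 7 in ST8, 7 to 8 in ES cells and 8 to 9 in amplified ES cells. Those against ES cells at day 5 were 9 to 10 in foregut and 8 to 9 in ENDM1-negative cells. The replicate numbers did not pair the samples (correlations of same-numbered deviations from -0.648 to 0.505). With the replicate number as a block, Fos was lost between ST5 and ES cells at day 5 (0.59, adjusted p = 0.064) and Dusp1 was gained there (0.37, adjusted p = 0.0483), and no other call changed. Precision is limited by the number of arrays.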
